A study of Mus musculus with 2 samples.

Results

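The replication-dependent histone genes of the mouse lie mainly in the Hist1 cluster on chromosome 13 and the smaller Hist2 cluster on chromosome 3. Binding of Tdg at these clusters was read from a list of ChIP-seq peaks of mouse embryonic stem cells of the line E14. The peaks were chosen by position alone, as those that overlap chromosome 13 from 21.8 to 23.7 Mb (the Hist1 window) or chromosome 3 from 96.0 to 96.15 Mb (the Hist2 window) by at least 1 base in the build mm9. There were 122 such peaks in the Hist1 window and 29 in the Hist2 window, 151 of the 72970 peaks of the list. The list came from 1 library of cells labelled Bio-Tdg, in which Tdg carries a tag that the bacterial ligase BirA biotinylates, so that the protein can be pulled down on streptavidin. The other group of the series, cells labelled BirA (mock), had 1 library, of which no file was analysed here, so no mock background stands beside any value. Neither the level of the tagged protein nor the number of clones is stated in the labels. With 1 library, no value has a replicate error and no test between samples was made. Intervals cover counting error only and treat peaks as independent, which makes them too narrow where peaks cluster.

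Tdg, thymine DNA glycosylase, removes mispaired thymine from DNA. It also removes the oxidised cytosines 5-formylcytosine and 5-carboxylcytosine, the excision step of active DNA demethylation. Replication-dependent histone genes encode the linker histone H1 and the core histones H2A, H2B, H3 and H4 that package newly copied DNA. They are short, lack introns, occur in many copies, are transcribed mainly in S phase, and give transcripts that end in a stem-loop in place of a poly(A) tail. Embryonic stem cells divide fast and spend much of their cycle in S phase.

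In the RefSeq gene table, which is on the later build GRCm38.p6, 54 histone genes were found for the Hist1 cluster and 10 for Hist2. The Hist1 genes encode H1 (6 genes), H2A (14), H2B (14), H3 (9) and H4 (11), and the Hist2 genes encode H2A (4), H2B (2), H3 (3) and H4 (1). By gene order, the Hist1 genes fell into 3 groups. The first, from H2bc13 to H2ac24, held 18 histone genes, the next, from H2ac12 to H2bc11, held 5, and the last, from H4c8 to H2ac1, held 31. Between the first group and the next stood 40 other genes, of which 31 were transfer RNA genes. Between the latter and the last stood 147, of which 75 were vomeronasal type 1 receptor genes or pseudogenes, a family known for expression in the sensory neurons of the vomeronasal organ, and 46 were transfer RNA genes. The windows therefore hold other genes as well. Coordinates of this table were not carried over to mm9, so no peak is assigned to a gene, and the number of histone genes inside each window is not given.

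The letters upstream of the histone genes show what the copies share. They come from the RefSeq promoter table (GRCm38.p6), which held 51 entries for 50 Hist1 genes and 8 for 8 Hist2 genes. The following are the 100 bases before the start site of the first gene in the table of each histone family along the Hist1 cluster, written 5′ to 3′ on the strand of the gene (H1f5 and H2bc13 on the minus strand, the other 3 on the plus strand). Capitals mark the letters CCAAT or TATAAA on either strand (ATTGG or TTTATA on the other), shown because these are textbook elements of histone promoters. In GRCm38.p6 the stretches are H1f5 chr13:21780626-21780725, H2ac13 chr13:21716312-21716411, H2bc13 chr13:21716184-21716283, H3c10 chr13:21717528-21717627 and H4c11 chr13:21734934-21735033.
H1f5: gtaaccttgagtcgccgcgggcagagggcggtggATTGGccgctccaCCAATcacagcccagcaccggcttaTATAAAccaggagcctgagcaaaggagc
H2ac13: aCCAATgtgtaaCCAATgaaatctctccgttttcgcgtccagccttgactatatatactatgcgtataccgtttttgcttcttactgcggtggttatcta
H2bc13: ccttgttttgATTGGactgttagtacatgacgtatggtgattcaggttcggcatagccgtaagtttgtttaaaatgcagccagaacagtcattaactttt
H3c10: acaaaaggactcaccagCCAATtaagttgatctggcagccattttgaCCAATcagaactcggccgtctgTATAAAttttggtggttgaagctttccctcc
H4c11: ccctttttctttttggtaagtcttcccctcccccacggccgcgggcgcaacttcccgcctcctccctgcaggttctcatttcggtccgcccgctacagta

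Over the 250 bases before the start site, CCAAT was present in 43 of the 51 Hist1 entries (84.3%) and in 6 of the 8 Hist2 entries (75%), against 33.8% of all 32851 entries of the table. TATAAA was present in 26 Hist1 entries (51%) and 2 Hist2 entries (25%), against 12.4% of all entries. By family, CCAAT stood in all 17 H2A, all 15 H2B and all 6 H1 entries of both clusters, in 8 of 10 H3 entries and in 3 of 11 H4 entries. CpG, the dinucleotide whose cytosine is methylated and oxidised, occurred a median of 9 times in Hist1 entries and 15 times in Hist2 entries, against 6 times in all entries (quartiles 2 and 16). Entries of neighbouring genes on opposite strands can overlap, as the 250 bases of H2bc13 and H2ac13 do. Letters were searched on either strand, so a match in shared bases is counted for both genes. The entries are therefore not independent, and how many overlap was not counted. A match of letters is a description and not a binding site.

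Some copies were nearly the same in sequence. Of 1274 pairs of Hist1 entries of different genes, 2 matched at 90% or more of these bases when shifted by up to 60 bases. They were H4c17 with H4c18 (100%) and H4c11 with H4c12 (95.8%). Of 28 Hist2 pairs, the same held for 2, H3c14 with H3c15 (99.6%) and H2ac18 with H2ac19 (94.8%). Most pairs were far less alike, with a median match of 33.3% in Hist1 and 32.6% in Hist2. Each match is the best over all shifts, without gaps. No match between unrelated promoters was computed, so these medians do not show shared sequence. The closest pair of each cluster is shown, again as the 100 bases before the start site, at H4c17 chr13:21811646-21811745 (plus strand), H4c18 chr13:21832198-21832297 (minus), H3c15 chr3:96239128-96239227 (minus) and H3c14 chr3:96246585-96246684 (plus) in GRCm38.p6. None of these positions can be set beside the mm9 positions of the peaks.
H4c17: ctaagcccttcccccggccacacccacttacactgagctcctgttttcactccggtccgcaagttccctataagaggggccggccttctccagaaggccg
H4c18: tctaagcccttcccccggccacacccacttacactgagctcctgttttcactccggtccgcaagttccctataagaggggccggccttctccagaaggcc
H3c15: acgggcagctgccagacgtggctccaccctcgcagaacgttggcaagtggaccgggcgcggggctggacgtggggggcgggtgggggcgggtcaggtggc
H3c14: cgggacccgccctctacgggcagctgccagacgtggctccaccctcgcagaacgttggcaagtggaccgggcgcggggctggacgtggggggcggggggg
Short reads that lie wholly within letters shared by both copies cannot be assigned to 1 of them by sequence. How such reads were treated is not given in the sources used here, and their part in the peaks was not tested.

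Tdg peaks were crowded in both windows. The Hist1 window had 64.2 peaks per Mb (53.3 to 76.7, an exact 95% Poisson interval), where the density was 21.4 per Mb (20.6 to 22.3) over the remaining 2469 peaks of chromosome 13, a ratio of 3.0 (exact conditional 95% interval 2.48 to 3.60). The Hist2 window had 193 peaks per Mb (129 to 278), against 19.6 (18.9 to 20.3) over the remaining 3059 peaks of chromosome 3, a ratio of 9.86 (6.59 to 14.2). The Hist1 window thus held 4.71% of the peaks of its chromosome in 1.62% of its length, and the Hist2 window 0.939% in 0.096%. Peaks covered 8.24% of the Hist1 window and 28.0% of the Hist2 window, against 2.22% of the rest of chromosome 13 and 2.09% of the rest of chromosome 3. With peaks less than 5 kb apart merged, the Hist1 ratio was 1.18 (0.801 to 1.67) over 32 runs, an interval that holds 1, and the Hist2 ratio was 5.46 (2.62 to 10.1) over 10 runs. With merging within 1 kb the Hist1 ratio was 2.09 (1.63 to 2.64), by bases covered it was 3.71, and for scores of 1000 or more the ratios were 4.74 for Hist1 and 17.1 for Hist2.

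Other parts of both chromosomes were as crowded. Chromosome 13 was divided into 62 windows of 1.9 Mb aligned to the Hist1 window, with peaks assigned by midpoint. The Hist1 window ranked number 3 by peaks, below windows with up to 164, and number 2 by bases covered, and the other windows had a median of 30 peaks. The windows just before and after it held 57 and 59. Of 1042 windows of 150 kb on chromosome 3, the Hist2 window ranked number 7 by peaks and number 5 by bases covered. The highest of the others held 37 peaks, their median was 1, and 452 had none. The windows on either side of Hist2 held 19 and 17 peaks, so Hist2 lies in a part of chromosome 3 that is dense in peaks. Against 10 Mb on each side in place of the whole chromosome, the ratio of Hist2 was 3.57 (2.38 to 5.16) and that of Hist1 4.24 (3.41 to 5.25).

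**Figure D1:**
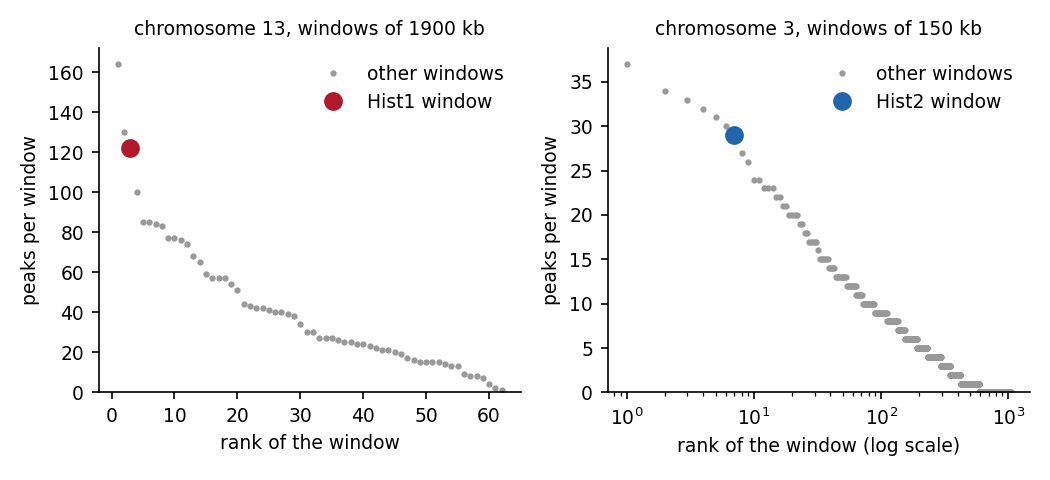
Peaks per window (y axis) against the rank of the window (x axis, logarithmic for chromosome 3), for all non-overlapping windows of the same length on chromosome 13 (left, 62 windows of 1.9 Mb) and chromosome 3 (right, 1042 windows of 150 kb). Each grey point is a window, and the large points are the Hist1 window with 122 peaks, number 3 of its chromosome, and the Hist2 window with 29, number 7 of its chromosome.

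Within the Hist1 window the peaks lay at both ends. In bins of 100 kb, the 4 bins from 21.8 to 22.2 Mb held 13, 7, 18 and 15 peaks, and the 4 bins from 23.3 to 23.7 Mb held 6, 6, 31 and 24. The 11 bins between held 2 peaks in all. The bins with 31 and 24 peaks, from 23.5 to 23.6 and from 23.6 to 23.7 Mb, were the fullest of the 1173 bins of chromosome 13. The bin with 18 peaks, from 22.0 to 22.1 Mb, ranked number 4, tied with 2 others. Both ends together had 120 peaks in 0.8 Mb, or 150 peaks per Mb, 7.01 times the density of the rest of the chromosome. These ends were set after the positions had been seen, so that ratio is a description.

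The middle of the Hist1 window was nearly empty. The stretch from 22143664 to 22921062 had no peak over 777 kb, and 11 of the 2590 stretches between peaks of chromosome 13 were at least that long, this one included. Next came a peak of 619 bp at 22921063 to 22921681 (28 reads), a stretch of 162 kb, a peak of 952 bp at 23084033 to 23084984 (46 reads) and a stretch of 277 kb. These 2 peaks were the only members without another peak within 50 kb by midpoint, 1.64% of the Hist1 peaks, where 7.98% of the peaks on the rest of chromosome 13 were that isolated. In the Hist2 window 0 of 29 peaks were isolated in this way (exact 95% binomial upper bound 11.9%), against 8.14% on the rest of chromosome 3. Depth limits what an empty stretch shows, since the fewest reads in any peak of the list with recovered reads were 21 and weaker binding would go uncalled.

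**Figure D2:**
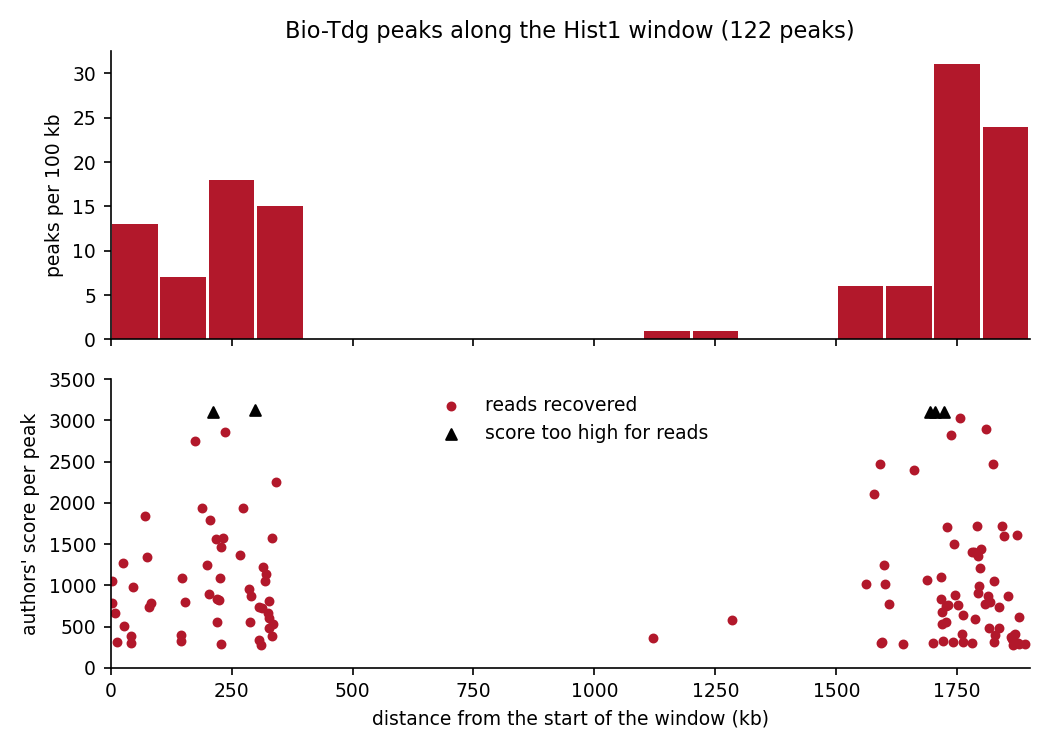
Number of Bio-Tdg peaks in each 100 kb of the Hist1 window (top) and the authors' score of each of the 122 peaks (bottom), both against distance from the start of the window in kb. Triangles are the 5 peaks whose scores lie beyond the range in which reads can be recovered, and the bins hold up to 31 peaks near the high end and 2 peaks in all over the 11 bins of the middle.

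The crowding did not stop at the limit of the Hist1 window on the high side. The next peak lay 12.4 kb past it, at 23712435 to 23714847, and the 200 kb past the limit held 20 peaks, or 100 per Mb, with a median width of 928 bp. Those 20 peaks are counted in the rest of chromosome 13. The window may end before the gene cluster does, which cannot be told without gene coordinates in mm9. On the low side the nearest peak outside lay 177 kb away, at 21622507 to 21623434, and it was the only peak in the 200 kb before the window. For Hist2 the nearest peaks outside lay 2.17 kb before the window, at 95997249 to 95997826, and 52.1 kb after it, at 96202104 to 96203463.

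Median width and median score were higher in both windows than on the rest of the same chromosomes. For Hist2, with few peaks, the intervals held the values of the rest. The score is the authors' own value per peak, which in the output of MACS, a peak caller, is −10 times the log10 of a p-value. The median width was 1088 bp in the Hist1 window (exact 95% interval of the median over peaks 972 to 1257) and 835 bp on the rest of chromosome 13. It was 1124 bp in the Hist2 window (719 to 1536) and 839 bp on the rest of chromosome 3, so the interval of Hist2 holds the value of the rest. The median score was 828 in the Hist1 window (743 to 1014) against 535, and 949 in the Hist2 window (457 to 1588) against 541, where the interval of Hist2 again holds the value of the rest. In a pair of 1 Hist1 peak and 1 other peak of chromosome 13, the Hist1 peak was the wider in a share of 0.622 of pairs and had the higher score in 0.625. For Hist2 the shares were 0.585 and 0.619, where 0.5 means no difference. Peaks of 1 library are not replicates, so no p-value is given.

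The score could be turned into reads. Below the limit of double-precision numbers, each score equalled that of a whole number of reads above a background fitted at 1.13 reads per kb, to within 0.01 units of score. Hist1 peaks with recovered reads (117 of 122) held 22 to 222 reads with a median of 60 (54 to 71), against 41 on the rest of chromosome 13. Hist2 peaks (25 of 29) held 22 to 191 reads with a median of 43 (34 to 93), against 40.5 on the rest of chromosome 3. Per length, the median was 56.6 reads per kb in Hist1 against 49.4, and 56.7 in Hist2 against 49.6. Since 4 of the Hist2 peaks and 5 of the Hist1 peaks lie beyond that range, these medians leave out the highest members.

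Set against peaks of like width, the read density of Hist1 peaks was near that of the others in the 2 narrowest groups. The peaks of the rest of chromosome 13 were divided into 4 equal groups by width, at 612, 835 and 1242 bp. From the narrowest group to the widest, Hist1 peaks had medians of 42.4, 46.5, 57.7 and 63.8 reads per kb, and the others 41.9, 45.3, 54.5 and 68.8. The Hist1 medians were higher in the 3 narrower groups. In the widest group the Hist1 median was the lower, over 46 of its 51 Hist1 peaks and 571 others with recovered reads. Peaks with scores too high for reads are left out on both sides, 47 of them on the rest of chromosome 13. The size of that difference is therefore uncertain. The widest group held 51 of the 122 Hist1 peaks (41.8%), and the narrowest 16 (13.1%). In the same division of chromosome 3, Hist2 peaks had medians of 43.8, 46.5, 65.8 and 60.5 reads per kb over 5, 8, 5 and 7 peaks, and the others 41.8, 45.5, 55.0 and 69.7. The Hist2 medians were higher in the 3 narrower groups, on very few peaks, and in the widest group only 7 of 11 Hist2 peaks have recovered reads.

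**Figure D3:**
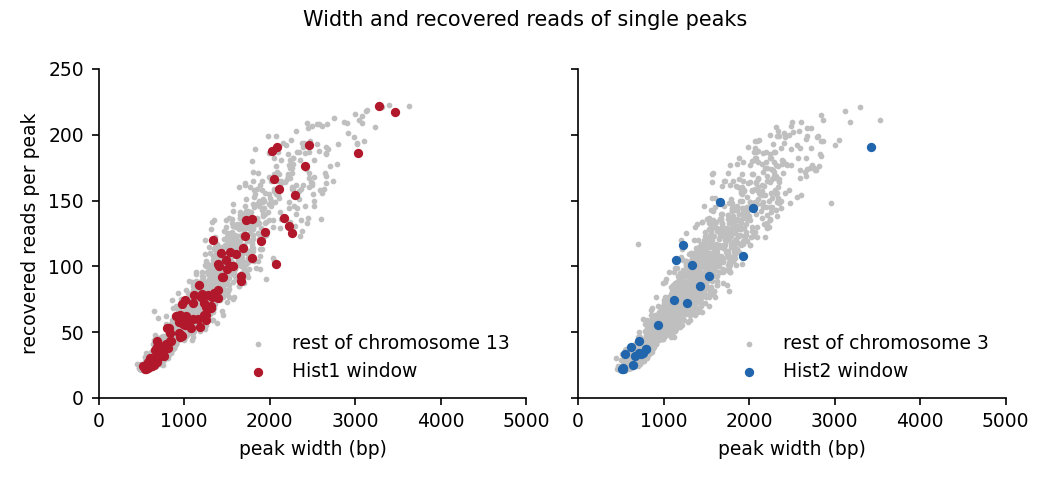
Recovered reads per peak (y axis) against peak width in bp (x axis) for the Hist1 window and the rest of chromosome 13 (left) and for the Hist2 window and the rest of chromosome 3 (right). Each point is a peak with recovered reads, grey for the rest of the chromosome, and the coloured member peaks lie within the cloud of the others, with medians of 60 and 43 reads.

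Broad peaks, and peaks with scores beyond the range of recovered reads, were larger shares of the members than of the rest in both windows. Of the Hist1 peaks 19 (15.6%, exact 95% binomial interval 9.64 to 23.2) were over 2 kb wide, against 7.53% on the rest of chromosome 13. Of the Hist2 peaks 6 (20.7%, 7.99 to 39.7) were, against 8.63% on the rest of chromosome 3. The Hist1 interval lies above the background share and the Hist2 interval holds it. That width was chosen with the values in view. Scores beyond the range in which reads can be recovered were found for 5 Hist1 peaks (4.10%, 1.34 to 9.31), against 1.90% on the rest of chromosome 13, and for 4 Hist2 peaks (13.8%, 3.89 to 31.7), against 2.81% on the rest of chromosome 3. Here it is the Hist1 interval that holds the background share, and the Hist2 interval lies above it. Most of these 4 Hist2 peaks lay in a single run, so that interval is too narrow. Which interval holds its background share does not set the clusters apart, since their numbers of peaks differ.

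Neighbouring member peaks lay close together. Between the midpoints of neighbours the median distance was 3138 bp in the Hist1 window (2324 to 3933), against 13500 bp on the rest of chromosome 13, and 3779 bp in the Hist2 window (2574 to 6834), against 10046 bp on the rest of chromosome 3. A neighbour within 5 kb by midpoint was present for 103 of the 122 Hist1 peaks (84.4%, 76.8 to 90.4), against 46.2% on the rest of chromosome 13. It was present for 22 of the 29 Hist2 peaks (75.9%, 56.5 to 89.7), against 52.2% on the rest of chromosome 3. Less than 1 kb of sequence separated 76 Hist1 peaks (62.3%) from their nearest neighbour, against 25.9%, and 13 Hist2 peaks (44.8%, 26.4 to 64.3), against 30.0%. The last of these intervals holds the share of the rest of chromosome 3. Against 10 Mb on each side, the ratio of the Hist2 distance to that of the rest was 0.653 in place of 0.376, and with peaks less than 1 kb apart merged the ratio of Hist1 was 0.380 in place of 0.232. Closer spacing is tied to the higher density and is not a separate measurement of it.

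**Figure D4:**
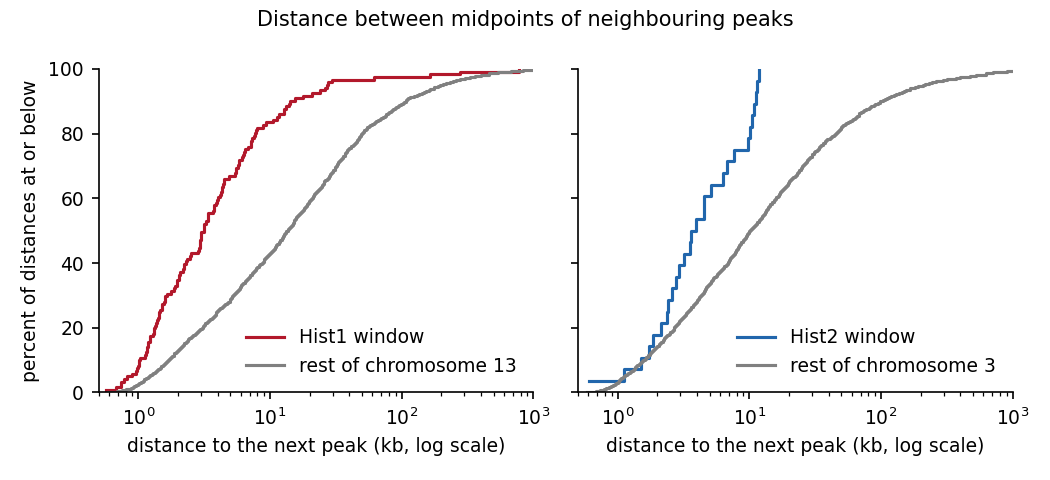
Percent of distances (y axis) at or below a distance between midpoints of neighbouring peaks in kb (x axis, logarithmic), for the Hist1 window and the rest of chromosome 13 (left) and the Hist2 window and the rest of chromosome 3 (right). The window curves lie to the left of the grey curves over most of the range, with medians of 3138 and 3779 bp against 13500 and 10046 bp.

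Runs of peaks were frequent in the Hist1 window. After peaks less than 1 kb apart were joined, 5 of the 9 runs of 4 or more peaks on chromosome 13 lay in the window. They held 24 of the 122 Hist1 peaks (19.7%), against 16 of the 2469 others (0.648%). The longest run of the whole chromosome, 23521694 to 23532398, had 5 peaks over 10.7 kb, of which peaks covered 79.1%. Next in length, 23589499 to 23599943, had 6 peaks over 10.4 kb with 83.7% covered, and no other run of the 2196 on chromosome 13 had as many peaks. They were followed in the window by 23621783 to 23628624 with 4 peaks over 6.84 kb and 23515040 to 23520559 with 5 peaks over 5.52 kb, all within the 2 fullest bins. The other run, 22124296 to 22128680 with 4 peaks, lay in the low end. In the Hist2 window 1 run had 4 or more peaks, 96129336 to 96145443. It had 6 peaks over 16.1 kb with 89.8% covered, and ranked number 2 in length of the 2562 runs of chromosome 3. By number of peaks, 4 runs of chromosome 3 had as many, this one included. The run held 6 of the 29 Hist2 peaks (20.7%). Of the 3059 others, 94 (3.07%) lay in 20 such runs of up to 8 peaks.

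The broadest Hist1 peaks stood at both ends of the window. The widest, 22008668 to 22012603 with 3936 bp, lay in the low end and had the score of 3100, which is the commonest score at the ceiling. The next 2, 23521694 to 23525526 with 3833 bp and 23501994 to 23505680 with 3687 bp, lay in the high end and had the same score. These 3 and 2 narrower peaks, 23492313 to 23495282 (2970 bp, score 3100) and 22097504 to 22099641 (2138 bp, score 3129), were those without recovered reads. Scores beyond the range of recovered reads do not rank these peaks. Next in width, 23608637 to 23612105 with 3469 bp and 23555199 to 23558477 with 3279 bp, held 217 and 222 reads, the most of the recovered Hist1 peaks. They were followed by 21973406 to 21975863 with 192 reads, 22036032 to 22038113 with 191 and 23536980 to 23539010 with 188. The last of these was 2031 bp wide and had the highest read density of the Hist1 peaks, 92.6 reads per kb.

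Weak members stood among the strong ones. The narrowest Hist1 peak, 21812957 to 21813472 with 516 bp, held 24 reads, and the next 4, at 23393480, 23665962, 22111285 and 23689568, were 543, 544, 548 and 552 bp wide with 24, 22, 22 and 23 reads. The last is also the last member of the window, and the first, 21801582 to 21802594, was 1013 bp wide with 74 reads. Some neighbours were parted by a few bases. The smallest gaps of the Hist1 window were 5 bp, after the peak 23516231 to 23517210, and 8 bp, after the peak 23607467 to 23608628. Closest by midpoint were 5 other pairs. The peaks 23392899 to 23393465 and 23393480 to 23394022 had 14 bp between them and 24 reads each, and the peaks 22127240 to 22127916 and 22127942 to 22128680 had 25 bp between them with 43 and 37 reads. The other 3 of the 5 closest pairs by midpoint began at 22133895, 23676225 and 23635025 and had gaps of 71, 104 and 56 bp. Whether such pairs are 1 site split by the caller was not tested.

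The 2 ends of the Hist1 window were set side by side. The low end, 21.8 to 22.2 Mb, had 53 peaks with a median width of 1230 bp, a median score of 870 and a median of 63 reads. The high end, 23.3 to 23.7 Mb, had 67 peaks with a median width of 1006 bp, a median score of 799 and a median of 58.5 reads. Peaks covered 16.8% of the low end and 22.0% of the high end, and read density was 58.5 and 56.3 reads per kb. The low end thus had fewer but wider peaks. The difference between the ends was not tested.

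All 29 Hist2 peaks can be followed along the window. The first, 95999920 to 96001967, crosses the start of the window and had 144 reads over 2048 bp. Peaks of 43 and 37 reads followed at 96010644 to 96011362 and 96013028 to 96013827. The next, 96022491 to 96025919, was 3429 bp wide and held 191 reads, the most of the Hist2 peaks with recovered reads. Strong peaks thus stood among weak ones. Then came 96030405 to 96031673 with 72 reads, 96040545 to 96042475 with 108, 96048838 to 96049388 with 33 and 96052490 to 96053016 with 22, the fewest of the window together with its last peak.

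A denser part began at 96058360. Peaks of 85, 25, 32 and 33 reads started at 96058360, 96060256, 96062393 and 96064083. They were followed by 96065745 to 96069008, 3264 bp wide with the score of 3100. A group of 3 close peaks, 96071620 to 96072144, 96072184 to 96072797 and 96073000 to 96074230, had 23, 39 and 116 reads with 39 and 202 bp between them. The last of these had the highest read density of the Hist2 peaks, 94.2 reads per kb over 1231 bp. Next were 96077769 to 96078559 with 37 reads and 96081253 to 96082909 with 149 reads over 1657 bp.

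A sparser part followed, with the 3 longest stretches without a peak inside the window, of 10, 10.7 and 10.9 kb. Weak peaks of 34 reads each, 96092914 to 96093625 and 96104290 to 96105045, stood between them, and 96115943 to 96117272 (101 reads) and 96125578 to 96127113 (93 reads) after them. The last part was the broadest. It opened with 96129336 to 96133573, the widest member of both windows at 4238 bp with the score of 3100, then 96134067 to 96135190 with 74 reads. Both 96135274 to 96139131 and 96139191 to 96142349 also had the score of 3100, at 3858 and 3159 bp, with 59 bp between them. The peaks 96142555 to 96143699 (105 reads) and 96144508 to 96145443 (55 reads) ended this run. The window closed with 96147488 to 96148000, at 513 bp its narrowest peak, with 22 reads. Of the 4 Hist2 peaks with the score of 3100, 3 thus lay in the last run.

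**Figure D5:**
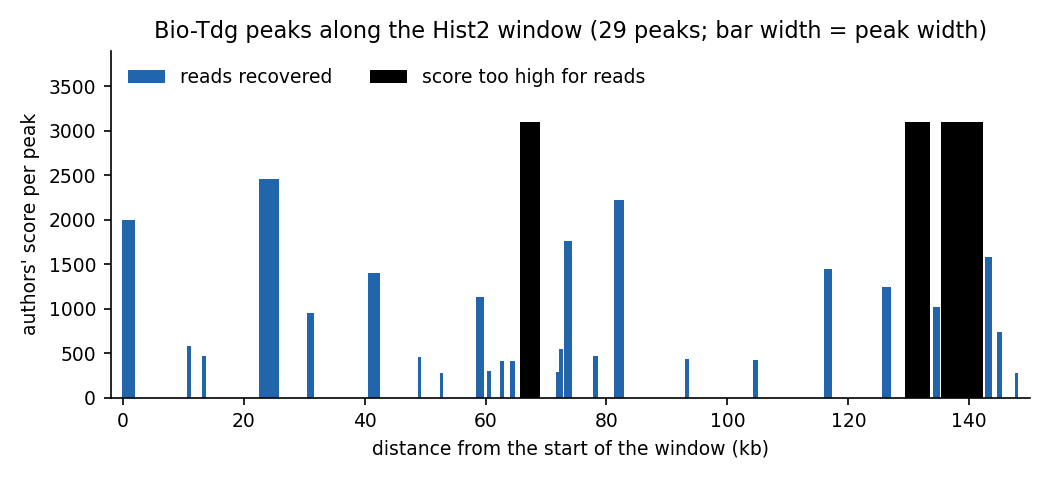
The authors' score (y axis) of each of the 29 peaks of the Hist2 window against distance from the start of the window in kb (x axis), with bars as wide as the peaks. Black bars are the 4 peaks with the score of 3100, of which 3 lie in the run of 6 peaks over 16.1 kb near the end, and the last 2 of them are so close that their bars touch.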

How the data were processed

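The data were a deposited list of ChIP-seq peaks of 1 Bio-Tdg library. Named in the submitters' processing notes, without roles, are the build mm9, MACS 1.4.1, Bowtie 0.12.7 and CASAVA 1.8. For the threshold, the control library and read filtering, settings were not given in the sources used here. The score of each peak is the authors' deposited value, and the deposited start and end are other values, printed counting from 1. The total depth of the library is unknown.

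Reads were recovered by fitting a single rate so that scores match Poisson tail probabilities of whole read numbers (70925 of 70925 peaks of at least 400 bp with a score in double-precision range lay within 0.01 score units, and 2045 peaks have none). The numbers are 1 higher if the caller used at least that number. On 5000 peaks simulated under a single rate, the model used for recovery, 100% of reads were recovered, and under a background that varied 0.16% of 4987 scores were whole. In the 70925 scores the background thus did not vary from place to place, so local coverage was not taken into account in them. Density ratios have exact conditional 95% intervals, shares exact binomial (Clopper-Pearson) ones, and medians exact order-statistic ones. The length of a chromosome was taken from its first to its last peak.

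The members and lists were chosen with earlier results of these data known. Peaks were named by rule: all of Hist2, and of Hist1 the first and last, the 5 widest, narrowest, richest in reads and closest pairs, those too high for reads, the ends of the 3 longest empty stretches, and the nearest peaks outside. The smallest gaps of Hist1 were added to these. Alternatives were score limits, merging, covered bases, midpoint overlap, a widened window, other definitions of the rest, and leaving out the widest 1%. Protein sequences were not compared. RefSeq tables (GRCm38.p6) gave names, gene order and promoter letters. Software was matplotlib 3.10.9, pandas 2.3.3, scipy 1.17.1, numpy 2.4.6 and Python 3.11.15.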

Additional observations from a re-analysis of the deposited data

How the results depend on the processing

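Of 43 values under other settings, 29 lay within the interval of the value reported and 14 did not, and in all 43 the side of 1 was kept. The side of 1 is that of the value alone, since the interval of the Hist1 ratio of 1.18 (0.801 to 1.67) holds 1. For Hist2 width and score the reported intervals hold the value of the rest, so lying within them shows little. Limited to scores from 500 up, the density ratio of Hist1 (3.0 as reported) was 4.18, from 1000 up 4.74, by bases covered 3.71 and 4.24 against 10 Mb on each side. It was 2.09 with peaks merged within 1 kb, 1.18 within 5 kb, and 7.01 for the ends of the window alone, a setting chosen after seeing the data. The ratio of Hist2 (9.86) was 17.1 for scores from 1000 up, 5.46 with merging within 5 kb and 3.57 against 10 Mb on each side. For Hist1 scores from 500 up, the ratio of median width was 1.10 (reported 1.3), that of median score 1.07 (1.55) and that of median neighbour distance 0.162 (0.232). With merging within 1 kb the last was 0.380. A score limit keeps fewer peaks and merging fewer, longer runs. Beyond that the cause was not tested. The score and the width were not independent, and a stretch without peaks does not show missing binding. No paired analysis was possible because values of a single library, Bio-Tdg, were analysed.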
